A study of Mus musculus with 16 samples.

Results

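The axon guidance ligands and receptors were the 71 genes of the array whose symbols begin with the names of the semaphorins of classes 3 to 7, the plexins, the neuropilins, the Eph receptors, the ephrins, the Slits and Robos, and the netrins with their receptors Dcc and Unc5. They were found by symbol alone, among 20124 named genes, and 91 probes measured them. Unc50 and Unc5cl matched the Unc5 pattern by symbol only and are not netrin receptors, which left 69 guidance genes. Where a gene had several probes, the one with the highest mean stood for it. The cells were mitral cells, which carry the output of the olfactory bulb, from ICR mice electroporated in utero at embryonic day 12, and all of them carried a plasmid for the yellow fluorescent protein EYFP. Control cells carried pCAG-EYFP alone. Kir2.1 cells also carried pCAG-Kir2.1, which drives an inward rectifier potassium channel that lowers excitability, and the series names these cells activity-silenced. Both groups were collected at postnatal day 3 (P3) and at postnatal day 6 (P6), which gave 4 groups with 40 cells each, arrayed as 4 pools of 10 cells. Fluorescent cells were picked by hand from dissociated bulbs and kept where PCR found EYFP and pcdh21, the mitral and tufted cell gene now named Cdhr1. The number of animals behind a pool is not given in the labels, so the p-values measure the spread between pools, part of which may be technical.

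Guidance ligands are secreted or displayed on membranes and steer growing axons and dendrites through receptors on the growth cone. Class 3 semaphorins are secreted and signal through neuropilins bound to plexins, most membrane semaphorins bind plexins directly, ephrins on one cell bind Eph receptors on another, Slits bind Robos, and netrins bind Dcc and the Unc5 receptors. In the olfactory system, Slit and Robo signalling is known to shape the lateral olfactory tract formed by mitral cell axons, and semaphorins and their receptors help to sort sensory axons in the bulb.

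Values are log2 signals relative to each array's own 75th percentile over the 12103 probes that the scanner software called well above background on all 16 arrays. A value of 0 therefore equals that percentile, and a difference of 1 is a 2-fold difference. On a given array, 34.3% to 41.1% of probes exceeded background in this way. All 14 tested mitral and tufted markers were well above background in at least 1 pool of every group. Cdhr1, by which the cells had been kept, was at 3.31 ± 0.33 in control and 2.75 ± 0.43 in Kir2.1 pools at P3, and at 3.08 ± 0.33 and 3.75 ± 0.25 at P6 (mean ± SD, n = 4 pools). The mean of the 14 markers was -1.84 in control and -1.49 in Kir2.1 pools at P3, and -2.38 and -1.88 at P6. From P3 to P6 in control pools, 10 of the 14 had lower means and 4 had higher ones. Among these markers, Reln was higher in Kir2.1 than in control pools at P6, by 3.89 (adjusted p = 0.0209), and was well above background in 1 of 4 P6 control pools, and Nts was lower, with a difference of -1.80 (adjusted p = 0.0412). Markers of other cells were present too. The mean of 15 olfactory bulb interneuron markers was between -5.84 and -4.39 in control and between -5.20 and -4.37 in Kir2.1 pools at P3. At P6 it was between -3.20 and -1.21 in control and between -5.99 and -3.49 in Kir2.1 pools, so that the P6 control pools were higher than every other pool. Between P3 and P6 in control pools, 13 of these 15 genes had higher means and 4 rose in the limma test, Gad1 by 6.23, Gad2 by 6.87, Meis2 by 4.32 and Synpr by 2.02 log2 units. Among the markers of other classes, Apod, Fabp7 and Itgam also rose there. All P3 arrays lay on one slide and all P6 arrays on another, and the slide therefore cannot be told apart from age. Control pools lay in 1 row of each slide and Kir2.1 pools in the other, so that treatment and slide row cannot be told apart.

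Of the 71 genes, 31 were well above background on all 16 arrays, 24 on 4 to 15 arrays and 13 on 1 to 3 arrays. The other 3, Ntn5, Unc5cl and Unc5d, did not exceed background on a single array. Genes seen on at least 4 arrays were tested, which kept 55 of the 71 genes among 12035 named genes. Unc50, matched by symbol only, was 1 of the 31 and of the 55, and counts of guidance genes below include it. The families differed in how many of their members were seen in every pool. All 13 membrane semaphorins were tested, and 10 of them were well above background on all 16 arrays. Both neuropilins and 5 of 9 plexins (Plxna1, Plxna2, Plxna3, Plxnb2 and Plxnd1) were as well. None of the 7 class 3 semaphorins and none of the 4 netrins reached all 16 arrays. Of 14 Eph receptors, all 4 tested EphB genes and only Epha3 and Epha5 among 9 EphA genes did so. Ephrins seen on all arrays were Efna3, Efna5 and Efnb3. For the Slits and Robos these were Slit1 and Robo2, and for the netrin receptors Dcc and Unc5b. Epha2, Epha4, Epha8, Epha10, Ephb4, Plxnb3, Robo3, Robo4, Slit2, Slit3, Ntn4, Sema3d and Sema3g were measured above background on too few arrays to be tested. A gene that was not well above background may have been below what pools of 10 amplified cells could show. In a pool, fewer cells expressing a gene and less RNA per cell cannot be told apart.

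**Figure D1:**
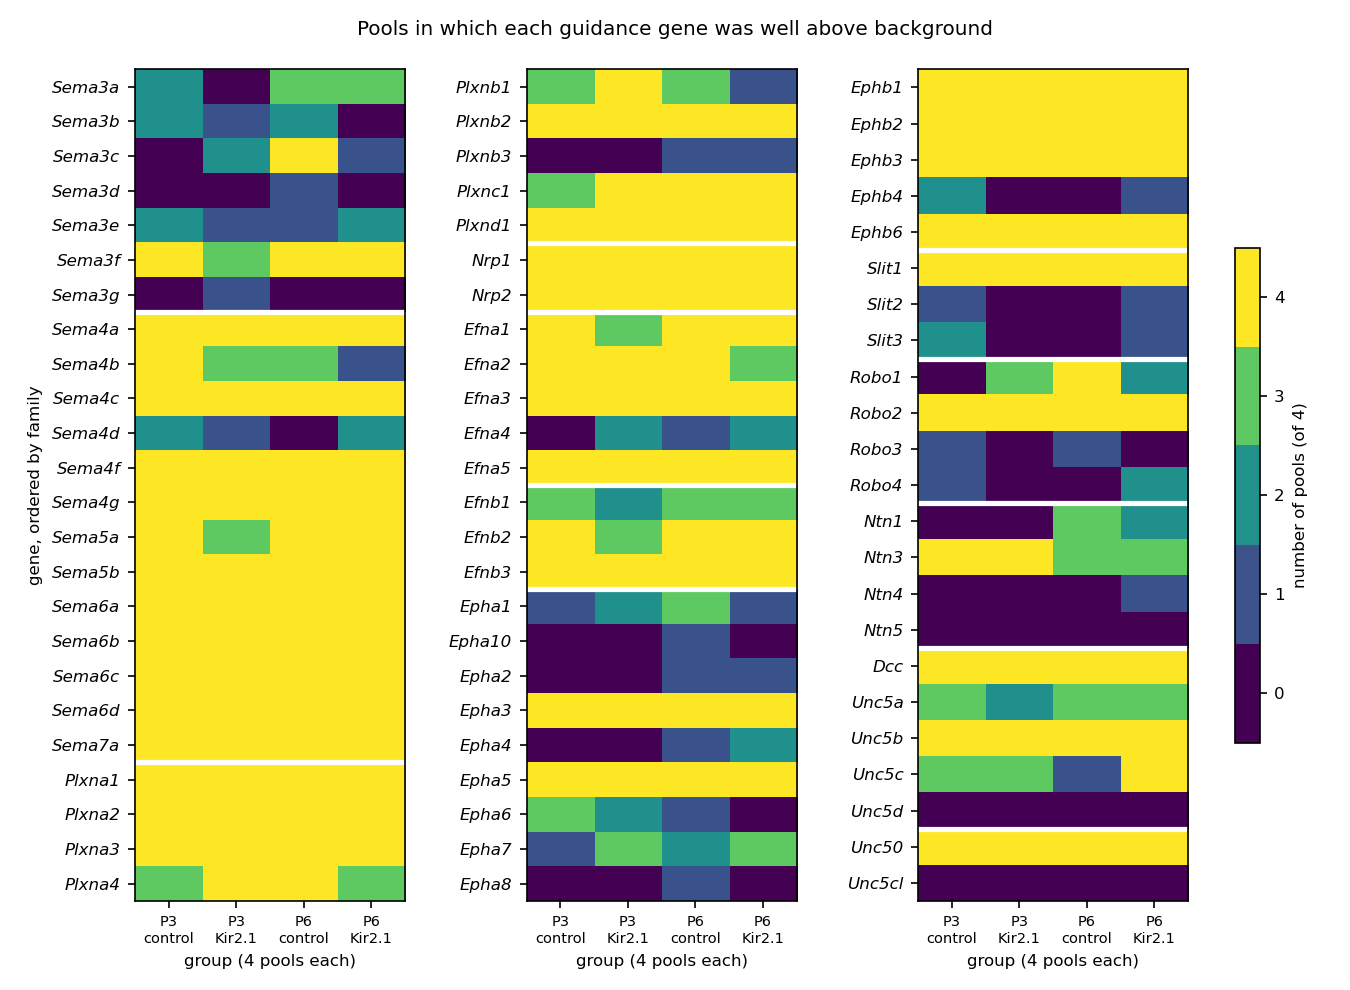
Number of pools, of 4 in each group, in which each of the 71 genes was well above background. Genes are ordered by family with white lines between families: the membrane semaphorins are mostly at 4 of 4 in every group, while Sema3c was seen in 0 control and 2 Kir2.1 pools at P3, and in 4 control and 1 Kir2.1 pools at P6.

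The precision differed as much between genes as the detection did. The SD within groups, pooled over the 4 groups, had a median of 0.64 over the tested guidance genes seen on all 16 arrays and of 1.97 over those seen on fewer. It was under 0.5 for 10 genes and over 2 for 11. Over all tested guidance genes the median was 1.00, beside 1.11 over all 12035 named genes. For 18 of the 55 guidance genes, the 95% interval of the difference between Kir2.1 and control pools over both ages lay within 1 log2 unit of 0, and for 8 it did so at each single age. For Epha5, Ephb2, Sema4a, Sema4c, Sema4g and Sema6c, it did so at both ages. For Epha5 this was true of the brighter probe alone, since a second probe, well above background on 13 arrays, gave differences of -2.58 at P3 and -2.27 at P6. For Ephb2, Plxna1, Robo2 and Sema4a, the same held for the difference between P6 and P3 in both control and Kir2.1 pools. For Robo2 it rested on the brighter probe, and a second one gave -0.92 in control and -2.22 in Kir2.1 pools. Ephb2, a receptor of the ephrin-Bs, and Sema4a, a transmembrane semaphorin, met both. Sema4a was at -0.41 ± 0.12 in control and -0.43 ± 0.21 in Kir2.1 pools at P3, and at -0.40 ± 0.36 in control and -0.38 ± 0.38 in Kir2.1 pools at P6. For Ephb2 these groups, in the same order, were at -3.74 ± 0.29, -4.06 ± 0.20, -3.76 ± 0.16 and -3.66 ± 0.28. The 4 group means of each gene lay within less than 1 log2 unit of each other.

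Of the 55 tested guidance genes, 1 passed the test in any of the 6 comparisons: Sema3c rose from P3 to P6 in control cells. It was tested only because the 4 P6 control pools, where it was high, were well above background; without them 3 arrays were, fewer than the 4 required. At P3, none of the 55 guidance genes passed the limma threshold of an adjusted p under 0.05 between Kir2.1 and control pools, 4 had an unadjusted p under 0.05, and the lowest adjusted p was 0.433. The share of all named genes that passed there was 0.00831%. At P6 none passed, 7 had an unadjusted p under 0.05, all 7 with lower means in Kir2.1 pools, and the lowest adjusted p was 0.102, against 1.8% of named genes that passed. For the mean of both ages, none passed, 5 had an unadjusted p under 0.05 and the lowest adjusted p was 0.124, against 0.706% of named genes. The 1 gene that passed from P3 to P6 in control pools stood beside 2.64% of named genes, and 11 guidance genes had an unadjusted p under 0.05. In Kir2.1 pools none passed between the ages, 7 had an unadjusted p under 0.05, and 0.956% of named genes passed. None passed the test of the interaction between age and Kir2.1, 5 had an unadjusted p under 0.05, and 0.0748% of named genes passed. The share of guidance genes with an unadjusted p under 0.05 was 7.27%, 12.7%, 9.09%, 20.0%, 12.7% and 9.09% in these 6 comparisons in turn, beside 6.07%, 17.2%, 12.9%, 18.0%, 14.2% and 10.5% of all named genes. The comparisons share pools, so their values are not independent of each other.

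Most guidance genes had lower means in Kir2.1 than in control pools at P3, 38 of 55 (69.1%, beside 55.6% of all named genes), with a median difference of -0.29 beside -0.10. The median was -0.13 without pool 1 and -0.18 without pool 4 of Kir2.1, -0.18 without pool 3 of control and -0.17 with normexp background correction. At P6 the means were lower for 30 of 55 (54.5%, beside 53.7%), with a median of -0.21 beside -0.09. With arrays scaled over all gene probes, 36 were lower at P3 and 27 at P6, where the median over guidance genes was 0.00 and that over named genes 0.12, so the sign at P6 depended on the scaling. The median at P6 was -0.14 without pool 1, -0.08 without pool 3 and -0.13 without pool 4 of control, and -0.01 without pool 3 and -0.13 without pool 4 of Kir2.1. It was 0.01 with array weights and 0.01 with the interneuron marker mean as a covariate, both above the median of all named genes. For the mean of both ages 40 of 55 were lower (72.7%, beside 56.1%), and 33 with arrays scaled over all gene probes. Pools of the 2 groups did not overlap for 4 guidance genes at P3 (7.27%, beside 5.89% of named genes), with Dcc, Efna3 and Nrp1 higher and Plxna3 lower in Kir2.1 pools. At P6 this held for 2 (3.64%, beside 8.08%), Plxna4 and Plxnc1, both lower in Kir2.1 pools. Between the ages it held in control pools for 7 (12.7%, beside 12.6%), with Dcc, Ephb6, Plxna4, Robo1, Sema3c and Sema5a higher and Efna2 lower at P6. In Kir2.1 pools it held for 1 (1.82%, beside 8.35%), Ephb6, higher at P6.

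**Figure D2:**
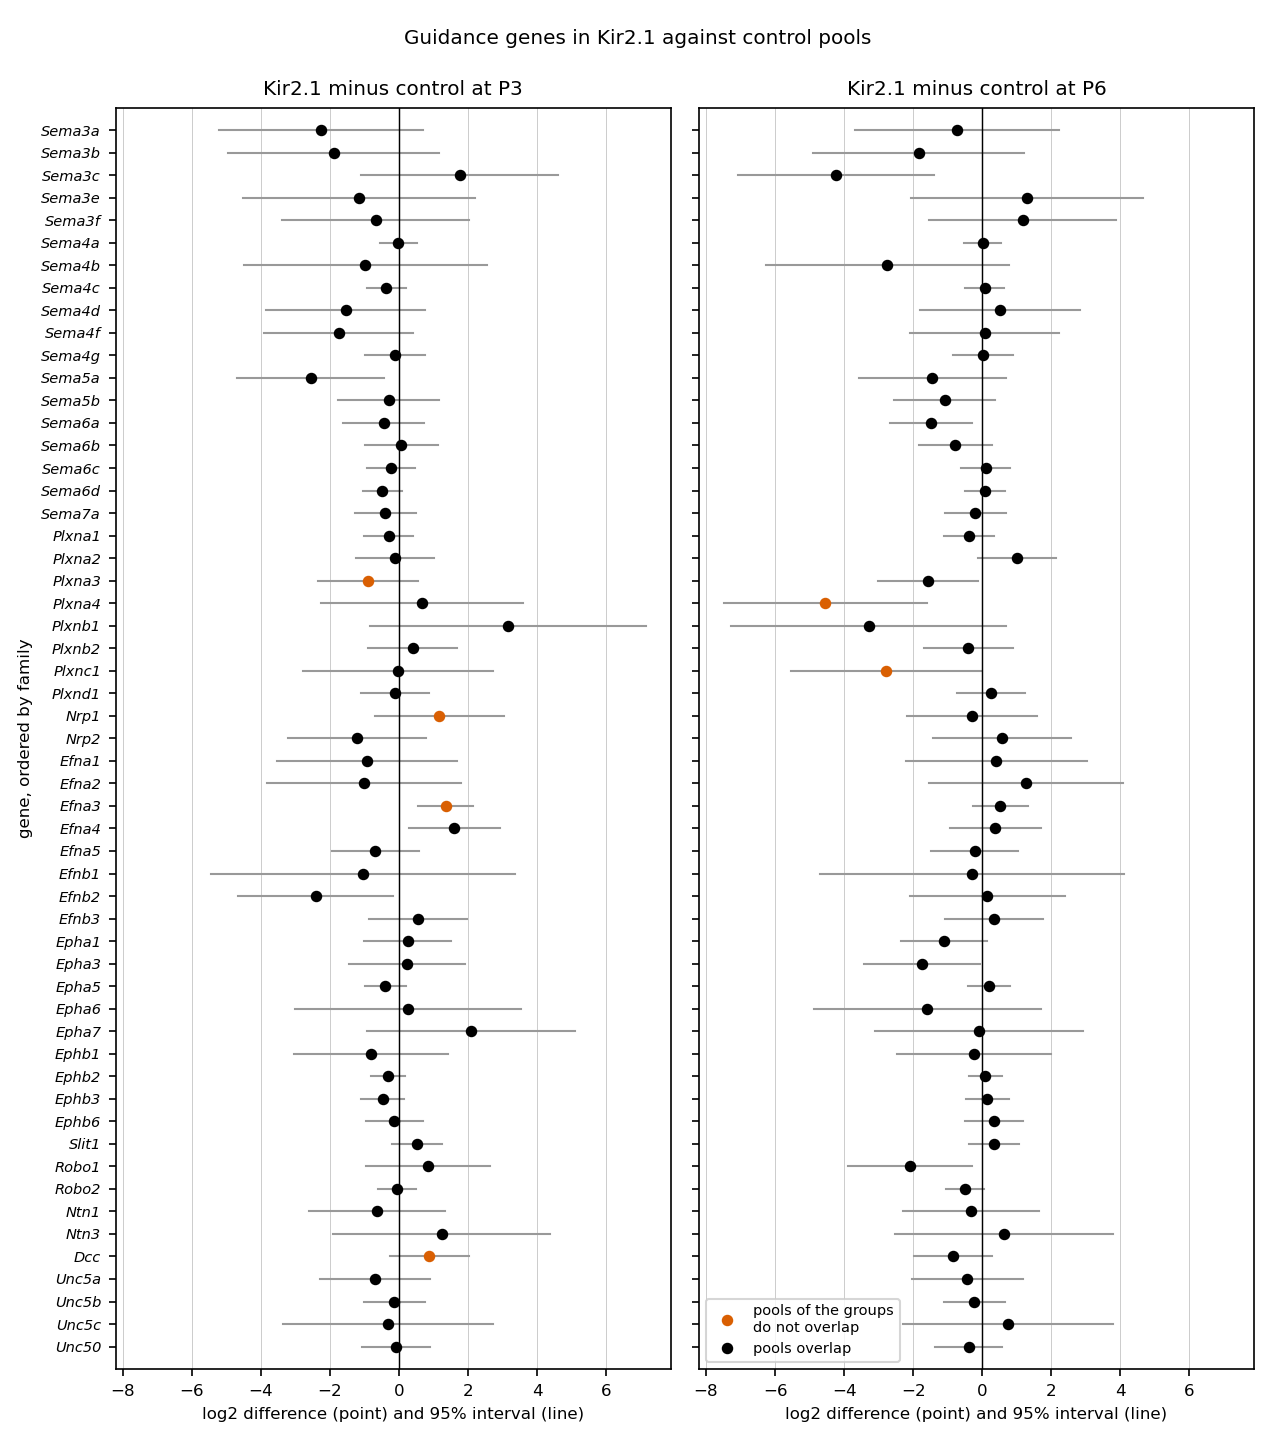
Difference in log2 signal between Kir2.1 and control pools at P3 (left) and P6 (right) for the 55 tested genes, ordered by family, with 95% intervals from limma (4 pools a group); orange points mark genes whose pools did not overlap, 4 at P3 and 2 at P6. Intervals of Sema4a and Ephb2 are narrow and cross 0, while the interval of Plxna4 at P6 lies below 0 although its adjusted p was 0.102.

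Among the ligands, the secreted class 3 semaphorins act at a distance, and Sema3c was the member that passed the test. It is secreted and signals through neuropilins and plexins. Sema3c was at -9.43, -9.53, -9.47 and -8.57 in the P3 control pools, and at -0.57, -4.51, -3.45 and -6.89 in the P6 control pools. It was well above background in none of the former and in all 4 of the latter, and the groups did not overlap. In the Kir2.1 pools, Sema3c was at -5.89, -7.25, -7.48 and -9.37 at P3 and at -9.81, -4.33, -9.61 and -8.64 at P6, with 2 pools and 1 pool well above background. The 4 P6 control pools spanned over 6 log2 units and included the highest Sema3c signal of the 16, in pool 1, which also had the highest interneuron marker mean. The difference between P6 and P3 in control pools was 5.40 (SE 1.32, adjusted p = 0.0486), with a 95% interval of 2.55 to 8.24. Since the P3 control pools gave only a bound, the group means differed at least 10.8-fold, a value that makes no allowance for the spread between pools. In Kir2.1 pools the same difference was -0.60 (SE 1.32, adjusted p = 0.875), and the interaction between age and Kir2.1 was -6.00 (SE 1.87, adjusted p = 0.245), which missed the threshold. Between Kir2.1 and control pools Sema3c differed by -4.24 (SE 1.32, adjusted p = 0.115) at P6 and by 1.75 (adjusted p = 0.880) at P3, both short of it.

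The rise of Sema3c was sensitive to single pools: with 1 pool left out at a time, the call held only in the fits without pool 4 of control at P6 and pool 2 of Kir2.1 at P6, and the others gave adjusted p = 0.0505 to 0.119. With normexp background correction the difference was 1.64 (adjusted p = 0.128), and with signals floored at background it was 3.43 (adjusted p = 0.113). With the interneuron marker mean as a covariate it was 0.36 (adjusted p = 0.967). That fit called 0 named genes in this comparison, beside 318 without the covariate. A second Sema3c probe was well above background on no array. The 250 bases before the annotated start of Sema3c are shown, with those of Robo1, because these 2 guidance genes alone went from no control pool well above background at P3 to all 4 at P6. They are from RefSeq (GRCm38.p6), 5′ to 3′ on the plus strand, at chr5:17574566-17574815 and chr16:72662899-72663148, with each CG in capitals.
Sema3c: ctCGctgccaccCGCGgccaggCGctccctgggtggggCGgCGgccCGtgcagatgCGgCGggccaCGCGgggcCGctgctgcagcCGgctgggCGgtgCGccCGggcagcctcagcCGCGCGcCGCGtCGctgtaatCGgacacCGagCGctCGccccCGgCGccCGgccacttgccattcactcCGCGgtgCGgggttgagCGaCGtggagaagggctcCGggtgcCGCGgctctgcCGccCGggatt
Robo1: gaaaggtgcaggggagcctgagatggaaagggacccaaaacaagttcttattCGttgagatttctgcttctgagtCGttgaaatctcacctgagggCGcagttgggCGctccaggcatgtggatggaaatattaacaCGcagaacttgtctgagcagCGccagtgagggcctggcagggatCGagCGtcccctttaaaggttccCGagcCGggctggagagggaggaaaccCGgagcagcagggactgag
The Sema3c stretch had 39 CG dinucleotides and a GC content of 78.4%, higher than that of 98.1% of all 32851 promoters of this length. The Robo1 stretch had 11 CG dinucleotides and 56.0% GC, higher than 61.3% of them. For 61 of the 71 genes such a stretch was found, 77 promoters in all, with a median GC content of 64.4% and a median of 15 CG dinucleotides, beside 52.4% and 6 over all promoters. The letters TGACG, the core of the element bound by the activity-dependent factor CREB, were in neither stretch on either strand. They were in 7 of the 77 guidance gene promoters (9.09%) and in 17.8% of all promoters, and the full palindrome TGACGTCA, which contains TGACG, was in 1 of the 77, that of Epha2, and in 1.55% of all.

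The other class 3 semaphorins were seen in fewer pools. Sema3f, which repels axons through Nrp2, was well above background on 15 arrays and was at -2.69 ± 1.35 in control and -3.37 ± 3.07 in Kir2.1 pools at P3, and at -2.09 ± 1.75 in control and -0.93 ± 0.07 in Kir2.1 pools at P6. Its P6 Kir2.1 pools were close together and the other groups spread widely. Between the ages in Kir2.1 pools it differed by 2.45 (SE 1.26, adjusted p = 0.387). Sema3b, seen on 5 arrays, was well above background in 2 P6 control and no P6 Kir2.1 pools, at least 1.9-fold lower in the latter, with a fitted difference of -1.84 (SE 1.42, adjusted p = 0.534). Sema3a, a repellent that signals through Nrp1, was seen on 8 arrays, none of them P3 Kir2.1, and was at least 1.56-fold lower there than in P3 control pools, with a fitted difference of -2.27 (SE 1.37, adjusted p = 0.835).

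The membrane semaphorins of classes 4 to 7 were the most evenly detected ligands. At P3, 12 of 13 had lower means in Kir2.1 than in control pools, the exception being Sema6b at 0.06, and over both ages all 13 did, with differences from -2.01 to 0.00. None passed the test. With arrays scaled over all gene probes or with the deposited value table, 11 were lower at P3 and 10 over both ages, Sema4a, Sema4g and Sema6c then being higher, so the uniform sign depended on the scaling. At P6 the family was split, with 6 lower and 7 higher. With age, 8 of 13 had lower means in control pools and 7 of 13 in Kir2.1 pools, or 5 of 13 in the latter with arrays scaled over all gene probes.

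Sema5a, a transmembrane semaphorin with thrombospondin repeats, had the largest difference of the family over both ages. Sema5a was at -3.87, -2.94, -5.04 and -3.54 in P3 control and at -9.73, -5.35, -3.77 and -6.77 in P3 Kir2.1 pools. P6 values of Sema5a were -1.92, -0.72, -2.31 and -1.10 in control and -1.91, -4.10, -3.39 and -2.46 in Kir2.1 pools. Its P6 control pools were all above its P3 control pools, while Kir2.1 and control pools overlapped at both ages. It differed by -2.01 (SE 0.70, adjusted p = 0.224) between Kir2.1 and control pools over both ages, by -2.56 (adjusted p = 0.646) at P3 and by -1.45 (adjusted p = 0.472) at P6. From P3 to P6 the difference was 2.34 (SE 0.99, adjusted p = 0.233) in control pools and 3.44 (SE 0.99, adjusted p = 0.125) in Kir2.1 pools. The same sign was thus seen in both treatments, with neither adjusted p under the threshold.

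Sema6a and Sema6d are transmembrane ligands that bind class A plexins, Sema6a binding Plxna2 and Plxna4 and Sema6d binding Plxna1. Sema6a was at -2.55, -1.95, -0.92 and -1.64 in P3 control and at -1.47, -1.95, -2.49 and -2.91 in P3 Kir2.1 pools. P6 values of Sema6a were -1.45, -1.67, -0.54 and -1.75 in control and -3.84, -2.54, -1.34 and -3.63 in Kir2.1 pools, where 3 of 4 Kir2.1 pools were below every control pool. The difference at P6 was -1.48 (SE 0.55, adjusted p = 0.179) and that at P3 was -0.44 (adjusted p = 0.936). Sema6d was at -1.50, -1.33, -1.79 and -1.22 in P3 control and at -2.47, -1.86, -1.62 and -1.84 in P3 Kir2.1 pools. P6 values of Sema6d were -2.51, -1.61, -2.31 and -2.25 in control and -2.31, -1.93, -1.82 and -2.30 in Kir2.1 pools. The P3 control pools were thus the highest group on average. Sema6d differed by -0.49 (SE 0.26, adjusted p = 0.823) between Kir2.1 and control pools at P3 and by -0.71 (SE 0.26, adjusted p = 0.172) from P3 to P6 in control pools. Further members with low unadjusted p-values were Sema6b, at 1.22 (SE 0.49, adjusted p = 0.210), Sema4c, at -0.60 (SE 0.26, adjusted p = 0.240), and Sema6c, at -0.73 (SE 0.33, adjusted p = 0.256), all from P3 to P6 in control pools. For Sema5b, the 2 probes gave differences of opposite sign between Kir2.1 and control pools at P6, -1.09 for the brighter probe and 1.09 for the other.

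Ephrin-As are held in the membrane by a lipid anchor, and ephrin-Bs span it. Efna3 had the lowest p of all guidance genes at P3. It was at -5.12, -5.27, -5.37 and -5.28 in P3 control and at -3.83, -3.64, -3.48 and -4.68 in P3 Kir2.1 pools, and these groups did not overlap. P6 values of Efna3 were -6.05, -5.55, -4.97 and -5.25 in control and -5.19, -4.20, -4.54 and -5.82 in Kir2.1 pools, which overlapped. Efna3 differed between Kir2.1 and control pools by 1.35 (SE 0.37, adjusted p = 0.433) at P3, by 0.52 (adjusted p = 0.497) at P6 and by 0.93 (SE 0.26, adjusted p = 0.124) over both ages. From P3 to P6 in Kir2.1 pools it differed by -1.03 (SE 0.37, adjusted p = 0.210). Efna1, Efna3 and Efna4 follow each other among the protein-coding genes of chromosome 3. Efna4 was at -7.21, -8.04, -7.26 and -8.97 in P3 control pools, none of them well above background, and at -4.18, -6.64, -6.57 and -7.67 in P3 Kir2.1 pools, 2 of them well above it. P6 values of Efna4 were -7.40, -8.02, -8.04 and -8.33 in control and -7.12, -8.14, -7.63 and -7.38 in Kir2.1 pools. Its difference at P3 was 1.60 (SE 0.61, adjusted p = 0.642), at least 1.94-fold higher in Kir2.1 pools, with overlapping groups. Without the P3 Kir2.1 pools, where it was higher, Efna4 fell short of the 4 arrays required for testing. Efna1 differed by -0.93 (adjusted p = 0.943) at P3 and by 0.41 (adjusted p = 0.899) at P6.

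Efnb2 was at -2.76, -1.17, -0.52 and -1.03 in P3 control and at -7.68, -3.97, -1.24 and -2.27 in P3 Kir2.1 pools. P6 values of Efnb2 were -1.01, -0.88, -0.74 and -1.53 in control and -0.12, -1.02, -1.95 and -0.49 in Kir2.1 pools. Its 4 P3 Kir2.1 pools spanned over 6 log2 units, and pool 1 was not well above background. The difference was -2.42 (SE 1.04, adjusted p = 0.731) between Kir2.1 and control pools at P3 and 2.89 (SE 1.04, adjusted p = 0.210) from P3 to P6 in Kir2.1 pools. Efna2 pools did not overlap between the ages in control cells, at -2.58 ± 0.86 at P3 and -5.02 ± 0.96 at P6, a difference of -2.44 (SE 1.31, adjusted p = 0.354). Efna5, an ephrin-A well above background on all arrays, differed by -0.68 (adjusted p = 0.913) at P3 and -0.21 (adjusted p = 0.892) at P6 between Kir2.1 and control pools. Efnb3 differed by 0.56 (adjusted p = 0.933) and 0.35 (adjusted p = 0.834).

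Of the diffusible midline cues, the Slits and netrins, only Slit1 was well above background on all arrays. It was at -6.31 ± 0.28 in control and -5.78 ± 0.68 in Kir2.1 pools at P3, and at -6.45 ± 0.32 in control and -6.12 ± 0.42 in Kir2.1 pools at P6, and differed by 0.43 (SE 0.24, adjusted p = 0.462) between Kir2.1 and control pools over both ages. Ntn1 was seen on 5 arrays, all from P6 pools, 3 control and 2 Kir2.1. It was thus tested only through the P6 pools, where it was higher. Between the ages it differed by 1.34 (SE 0.92, adjusted p = 0.484) in control pools, at least 1.18-fold, and in Kir2.1 pools the fitted difference was 1.66 (SE 0.92, adjusted p = 0.421), with no P3 pool well above background to measure it from. Ntn3 had the opposite sign, at -2.84 (SE 1.46, adjusted p = 0.333) and -3.44 (SE 1.46, adjusted p = 0.287). Neither netrin passed the test.

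Among the receptors, the plexins are the signalling receptors of the semaphorins. Plxna4 serves class 3 semaphorins together with neuropilins and also binds Sema6a. Plxna4 was at -7.56, -3.01, -4.97 and -2.97 in P3 control and at -3.72, -4.17, -3.79 and -4.19 in P3 Kir2.1 pools. P6 values of Plxna4 were -0.74, -1.08, -0.76 and 0.56 in control and -4.99, -4.09, -9.60 and -1.52 in Kir2.1 pools. The P6 control pools were higher than each of the other 12 pools. Plxna4 differed by -4.54 (SE 1.36, adjusted p = 0.102) between Kir2.1 and control pools at P6, by 4.12 (SE 1.36, adjusted p = 0.129) from P3 to P6 in control pools and by -5.20 (SE 1.93, adjusted p = 0.336) in the interaction. At P3 it differed by 0.66 (adjusted p = 0.971) and between the ages in Kir2.1 pools by -1.08 (adjusted p = 0.765). With normexp background correction Plxna4 passed the threshold at P6, at -2.92 (adjusted p = 0.0192), and from P3 to P6 in control pools, at 2.92 (adjusted p = 0.0152). It also passed the latter without P6 Kir2.1 pool 3 (adjusted p = 0.0404). With the interneuron marker mean as a covariate these differences were -5.29 (adjusted p = 0.404) and 4.95 (adjusted p = 0.559), as large as without it, with higher adjusted p-values. That fit can hardly separate the covariate from the P6 control pools. Other probes of Plxna4 were well above background on no array.

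Plxna3 is the plexin that, with Nrp2, receives Sema3f. It was at -1.77, -1.33, -2.10 and -1.43 in P3 control and at -2.14, -2.30, -2.89 and -2.90 in P3 Kir2.1 pools, which did not overlap. P6 values of Plxna3 were -1.80, -1.84, -2.41 and -2.03 in control and -3.22, -1.88, -6.29 and -2.97 in Kir2.1 pools, where 3 of the Kir2.1 pools were below all control pools. The difference was -0.90 (adjusted p = 0.880) at P3, -1.57 (adjusted p = 0.251) at P6 and -1.23 (SE 0.48, adjusted p = 0.279) over both ages. Plxnb1, the receptor of Sema4d, was the most variable of the plexins shown. Plxnb1 was at -9.30, -5.67, -1.76 and -6.21 in P3 control and at -2.79, -3.67, -2.88 and -0.98 in P3 Kir2.1 pools. P6 values of Plxnb1 were -3.10, -9.01, -4.47 and -1.64 in control and -9.82, -3.16, -9.62 and -8.77 in Kir2.1 pools. In P6 Kir2.1 cells, pool 2 alone was well above background. Plxnb1 differed by -5.26 (SE 1.85, adjusted p = 0.199) from P3 to P6 in Kir2.1 pools and by -6.45 (SE 2.62, adjusted p = 0.387) in the interaction.

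Plxnc1, the receptor of Sema7a, had P6 pools that did not overlap, at -1.79 ± 1.29 in control and -4.57 ± 1.52 in Kir2.1 pools, a difference of -2.78 (SE 1.28, adjusted p = 0.281). Plxna2, a receptor of Sema6a, had the opposite sign, at 1.00 (SE 0.52, adjusted p = 0.345). Over the family, 6 of 8 tested plexins had lower means in Kir2.1 pools at P6 and 5 of 8 at P3, or 4 of 8 at P3 with arrays scaled over all gene probes. The neuropilins are the ligand-binding partners of plexins for class 3 semaphorins. Nrp1 was at -3.62, -4.45, -3.46 and -4.11 in P3 control and at -2.72, -3.13, -3.37 and -1.76 in P3 Kir2.1 pools, which did not overlap, with a difference of 1.17 (SE 0.87, adjusted p = 0.878). At P6 the Nrp1 difference was -0.29 (adjusted p = 0.899). Nrp2 differed by -1.22 (adjusted p = 0.882) at P3 and by 0.57 (adjusted p = 0.799) at P6. The 2 neuropilins thus had differences of opposite sign at each age, and apart from Nrp1 at P3 their Kir2.1 and control pools overlapped.

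**Figure D3:**
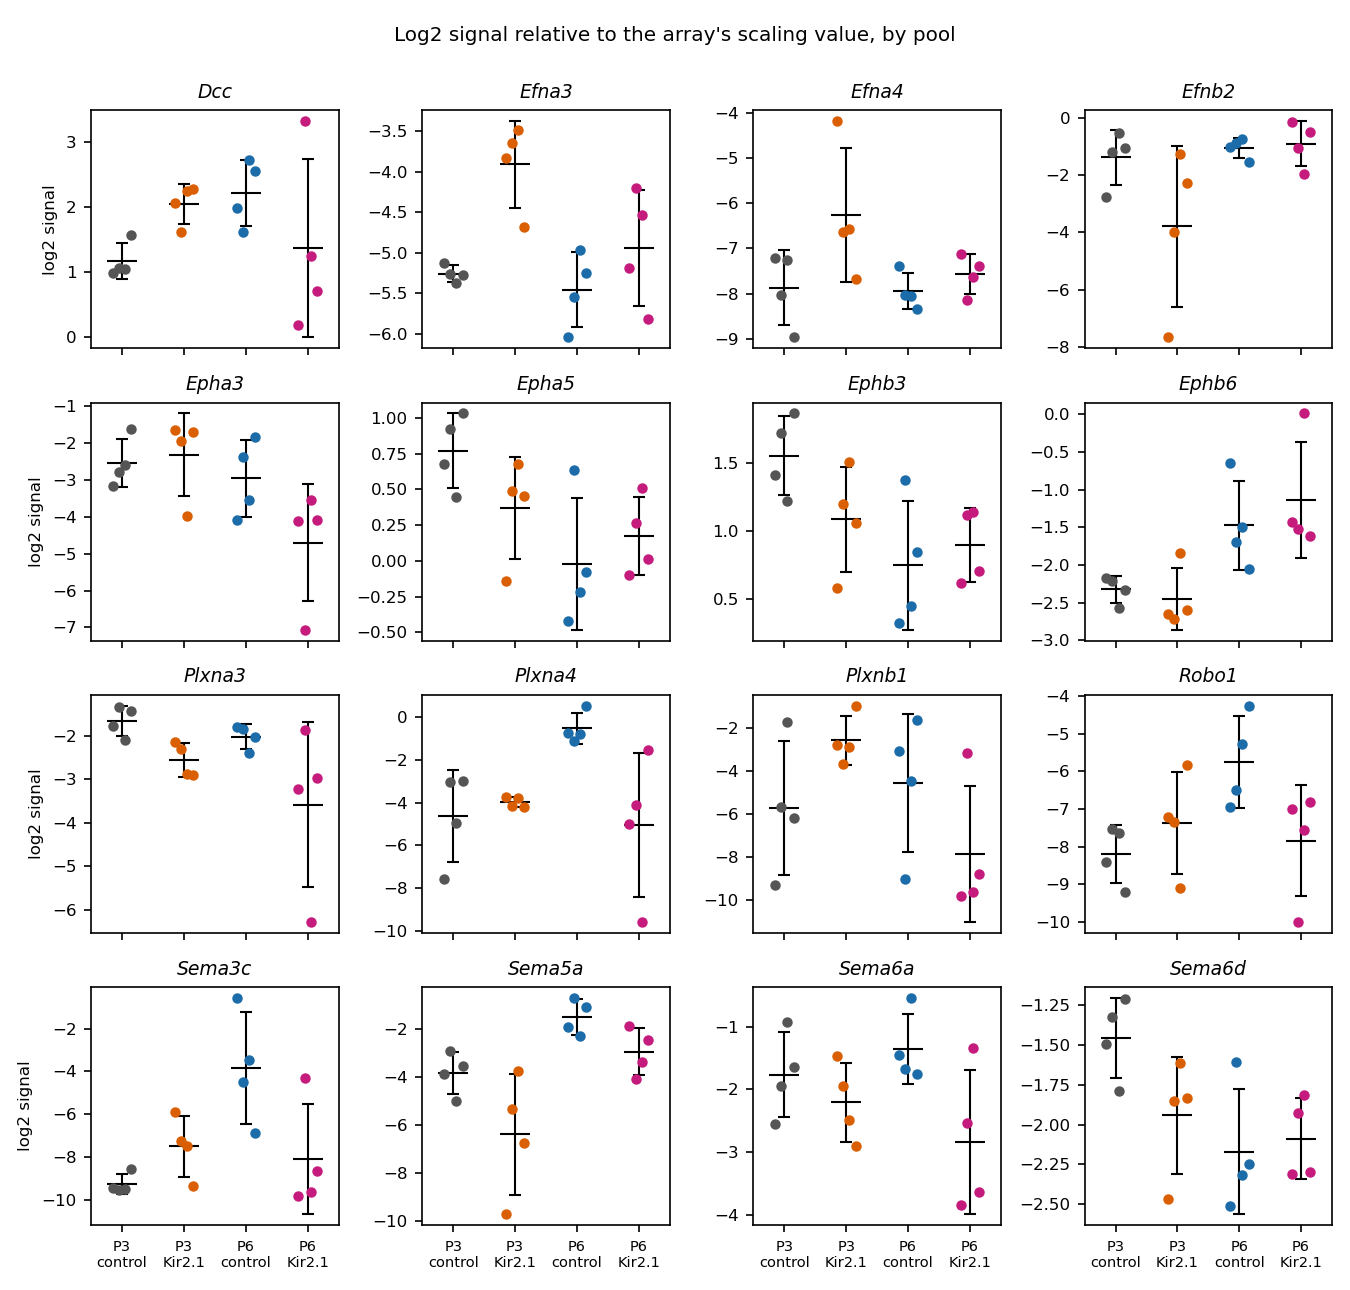
Log2 signal of the 16 genes described pool by pool: each point is a pool of 10 cells (4 pools a group), and black marks give the mean and SD of the group. The 4 P6 control pools of Sema3c and Plxna4 lie above all P3 control pools, while Ephb3, Epha5 and Sema6d span under 2 log2 units over all 16 pools.

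Eph receptors are receptor tyrosine kinases. Among the EphA receptors, Epha3 was at -3.15, -2.79, -2.58 and -1.61 in P3 control and at -1.63, -1.93, -3.98 and -1.70 in P3 Kir2.1 pools. P6 values of Epha3 were -4.07, -2.36, -3.55 and -1.84 in control and -4.11, -7.06, -3.54 and -4.07 in Kir2.1 pools. Pool 2 was the lowest of the P6 Kir2.1 pools by almost 3 log2 units. Epha3 differed by -2.39 (SE 0.78, adjusted p = 0.167) from P3 to P6 in Kir2.1 pools and by -1.74 (SE 0.78, adjusted p = 0.269) between Kir2.1 and control pools at P6. Epha5 was at 0.68, 0.92, 0.44 and 1.03 in P3 control and at -0.14, 0.49, 0.68 and 0.45 in P3 Kir2.1 pools. P6 values of Epha5 were -0.42, 0.64, -0.22 and -0.08 in control and -0.10, 0.26, 0.51 and 0.01 in Kir2.1 pools. Its difference from P3 to P6 in control pools was -0.79 (SE 0.28, adjusted p = 0.152). A second Epha5 probe, well above background on 13 arrays, gave 1.98 for the same comparison, so the probes of Epha5 disagreed in sign. All 5 tested EphA receptors had lower means at P6 than at P3 in Kir2.1 pools, and 3 of 5 did in control pools. In Kir2.1 pools the differences of Epha1, Epha3, Epha5 and Epha7 were from -2.39 to -0.20. With the mean over the probes of a gene, 4 of 5 did in Kir2.1 pools, Epha5 then being higher. Epha6 was not well above background in any P6 Kir2.1 pool and was at least 1.9-fold lower there, with a fitted difference of -2.93 (SE 1.53, adjusted p = 0.393).

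The 4 tested EphB receptors, Ephb1, Ephb2, Ephb3 and Ephb6, all had lower means in Kir2.1 than in control pools at P3, with differences from -0.80 to -0.13, under each of the 5 scalings and background corrections tried, and none passed the test. At P6, 3 of the 4 had higher means in Kir2.1 pools. Ephb3 was at 1.41, 1.72, 1.23 and 1.87 in P3 control and at 0.58, 1.20, 1.51 and 1.06 in P3 Kir2.1 pools. P6 values of Ephb3 were 0.32, 1.38, 0.45 and 0.85 in control and 0.62, 1.12, 1.14 and 0.71 in Kir2.1 pools. It differed by -0.81 (SE 0.29, adjusted p = 0.157) from P3 to P6 in control pools. Ephb6, a family member whose kinase domain is inactive, was at -2.17, -2.21, -2.57 and -2.33 in P3 control and at -2.65, -2.72, -1.85 and -2.60 in P3 Kir2.1 pools. P6 values of Ephb6 were -0.65, -1.70, -1.50 and -2.06 in control and -1.43, -1.52, 0.01 and -1.62 in Kir2.1 pools. In both treatments every P6 pool was above every P3 pool. The difference was 0.84 (SE 0.39, adjusted p = 0.273) in control and 1.32 (SE 0.39, adjusted p = 0.131) in Kir2.1 pools.

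Robo1 and Robo2 are Slit receptors. Robo1 was at -8.42, -7.53, -7.64 and -9.21 in P3 control pools, none of them well above background, and at -7.20, -7.34, -9.11 and -5.82 in P3 Kir2.1 pools. P6 values of Robo1 were -6.96, -6.51, -5.26 and -4.26 in control pools, all well above background, and -7.0, -10.00, -7.55 and -6.82 in Kir2.1 pools. The control pools did not overlap between the ages. Robo1 in control pools differed between the ages by 2.45 (SE 0.83, adjusted p = 0.138), at least 2.91-fold, and at P6 it differed by -2.10 (SE 0.83, adjusted p = 0.214) between Kir2.1 and control pools. The interaction was -2.93 (SE 1.18, adjusted p = 0.385). With the interneuron marker mean as a covariate the age difference in control pools was 4.87 (adjusted p = 0.225) and the P6 difference -4.26 (adjusted p = 0.243), larger than without it. That fit can hardly separate the covariate from the P6 control pools. Robo2 was among the members with the narrowest spread, at -0.04 ± 0.20 in control and -0.10 ± 0.07 in Kir2.1 pools at P3, and at 0.02 ± 0.37 in control and -0.47 ± 0.45 in Kir2.1 pools at P6. It differed by -0.49 (SE 0.26, adjusted p = 0.345) at P6. A second Robo2 probe, also well above background on all 16 arrays, gave -1.45 there and -2.22 from P3 to P6 in Kir2.1 pools, where the brighter probe gave -0.37.

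Dcc is the netrin receptor that mediates attraction. Dcc was at 0.99, 1.06, 1.05 and 1.58 in P3 control and at 2.06, 1.62, 2.24 and 2.28 in P3 Kir2.1 pools, which did not overlap. P6 values of Dcc were 1.98, 1.61, 2.72 and 2.55 in control and 0.19, 3.32, 1.25 and 0.71 in Kir2.1 pools. The P6 Kir2.1 pools spanned over 3 log2 units and held both the lowest and the highest Dcc signal of the 16. The difference was 0.88 (SE 0.53, adjusted p = 0.835) at P3, -0.85 (SE 0.53, adjusted p = 0.429) at P6, 1.05 (SE 0.53, adjusted p = 0.322) from P3 to P6 in control pools and -1.73 (SE 0.75, adjusted p = 0.424) in the interaction. Unc5b, a netrin receptor that mediates repulsion, differed by 0.54 (adjusted p = 0.536) from P3 to P6 in control pools. Unc5a differed by -0.56 (adjusted p = 0.682) between Kir2.1 and control pools over both ages, and Unc5c by -1.38 (adjusted p = 0.662) from P3 to P6 in control pools. No netrin receptor passed the test.

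The signals of Sema3c, Plxna4 and Robo1 were each highest on average in the P6 control pools, where the interneuron marker mean was also highest. That mean was between -3.20 and -1.21 there, and all 15 interneuron markers were well above background in at least 1 pool. Of the other groups, P3 Kir2.1 pools had the highest marker mean (-4.84) and the highest mean Plxna4 (-3.97). P6 Kir2.1 pools had a higher marker mean than P3 control pools (-4.91 and -5.19) but a lower mean Plxna4 (-5.05 and -4.63). The pools of these groups overlapped in both values. Dlx1 was not well above background in any P3 control pool, Dlx1, Penk and Sp9 in any P3 Kir2.1 pool, or Penk in any P6 Kir2.1 pool. At P6 the interneuron markers had lower means in Kir2.1 pools for 14 of 15, with a median difference of -2.13. Penk differed by -6.32 (adjusted p = 0.0269), and its group means differed at least 28.4-fold. Penk was tested only through the P6 control pools, where it was high, since 1 other array was well above background. In the P6 control pools the means of astrocyte (between -4.04 and -2.75), ensheathing cell (between -3.42 and -1.85) and microglia markers (between -4.56 and -1.52) were, beside P3 control pools, higher for 8 of 10, 8 of 8 and 6 of 7 genes. They were also higher for 8 of 10 oligodendrocyte and 6 of 9 vascular and blood markers, but for only 2 of 6 olfactory sensory neuron and 0 of 4 cell division markers. Within the P6 control pools, pools 1 to 4 had interneuron means of -1.21, -2.61, -2.91 and -3.20. Pool 1 had the lowest Robo1 and the highest Sema3c, and pool 4 the highest Robo1 and the lowest Sema3c. Plxna4 was highest in pool 4 and second highest in pool 1. The order within these 4 pools was not tested. Beyond the fit with the covariate, the part of these cells in the differences was not tested.

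**Figure D4:**
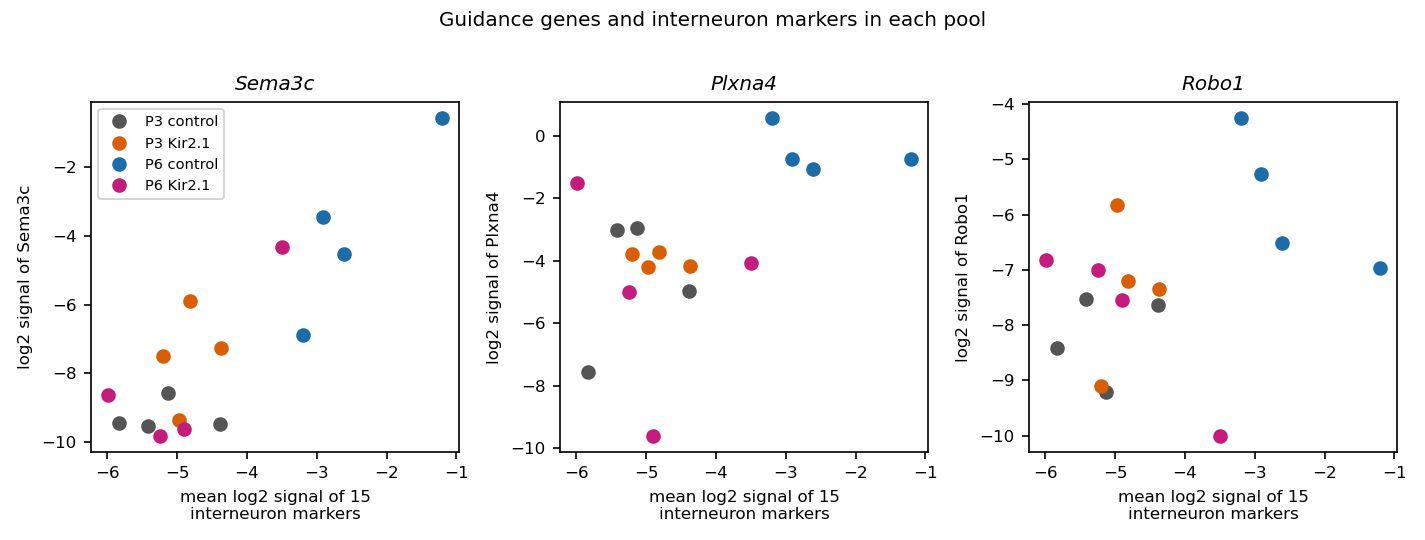
Log2 signal of Sema3c, Plxna4 and Robo1 (vertical axes) in each of the 16 pools against the mean log2 signal of 15 interneuron markers in the same pool (horizontal axis), coloured by group. The 4 P6 control pools have the highest marker means, between -3.20 and -1.21, and the highest signal of each of the 3 genes; for Plxna4 all 4 of them lie above every other pool, while for Sema3c and Robo1 they overlap the Kir2.1 pools.

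Genes that act next to these ligands and receptors were read from 2 lists. In the list of 64 cytoplasmic effectors of guidance receptors, 56 were tested, and at P6 2 were higher and 1 was lower in Kir2.1 than in control pools, beside the 1.8% of named genes given above. Dpysl3, a collapsin response mediator protein that carries semaphorin signals to the cytoskeleton, fell at P6. Dpysl3 was at 3.47, 3.5, 3.74 and 3.71 in control and at 2.29, 2.47, 2.05 and 2.65 in Kir2.1 pools, with a difference of -1.24 (SE 0.20, adjusted p = 0.00944) that held with any single pool left out. It was -1.69 (adjusted p = 0.175) with the mean over probes. Ablim1, an actin-binding LIM protein, rose from -6.73, -5.38, -9.66 and -6.15 in control to -3.07, -4.34, -1.24 and -2.14 in Kir2.1 pools, a difference of 4.28 (SE 0.84, adjusted p = 0.0257); when pools 1, 3 and 4 of Kir2.1 at P6 were left out one at a time, the call was lost (adjusted p = 0.0523 to 0.0600). With normexp background correction it was 2.07 (adjusted p = 0.0241). Pak1, a kinase activated by Rac and Cdc42, rose from -1.56, -1.39, -2.85 and -0.42 to 0.96, 0.58, 0.71 and 1.21, a difference of 2.42 (SE 0.48, adjusted p = 0.0261); when pools 1 and 4 of Kir2.1 at P6 were left out one at a time, the call was lost (adjusted p = 0.0607 to 0.0639). Of the 56 effectors 30 had lower means at P6 and 26 with arrays scaled over all gene probes. Of the 56, 20 had an unadjusted limma p under 0.05 at P6, beside 17.2% of all named genes. None passed the limma test at P3, where 2 of 56 had an unadjusted p under 0.05, beside 6.07% of named genes.

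Over both ages, 2 of the 56 effectors fell in Kir2.1 pools, Farp1 and Dpysl3, beside the 0.706% of named genes that passed. Farp1, known to act with class A plexins, was at 0.15, 0.35, 0.54 and 0.01 in P3 control and at -1.17, -1.28, -0.65 and -0.75 in P3 Kir2.1 pools. P6 values of Farp1 were -0.01, -0.06, 0.18 and 0.27 in control and -0.35, -0.56, -0.99 and -1.20 in Kir2.1 pools. All Kir2.1 pools were below all control pools at each age, and the difference over both was -1.05 (SE 0.17, adjusted p = 0.0158), called with any single pool left out, but -0.39 (adjusted p = 0.744) with the mean over the probes of the gene. Dpysl3 differed over both ages by -0.71 (SE 0.14, adjusted p = 0.0374), but at P3 alone by -0.17 (adjusted p = 0.933), with overlapping pools. For the former, with 1 pool left out at a time, the call held only in the fits without pools 1, 2 and 3 of control at P6 and pool 4 of Kir2.1 at P6, and the others gave adjusted p = 0.0536 to 0.0791. From P3 to P6 in control pools, Dpysl2 and Dpysl5, of the same family, fell by 0.94 (SE 0.22, adjusted p = 0.0417) and 0.95 (SE 0.23, adjusted p = 0.0482) on the log2 scale. For Dpysl2, with 1 pool left out at a time, the call held only in the fits without pool 2 of control at P6 and pools 1 and 3 of Kir2.1 at P6, and the others gave adjusted p = 0.0527 to 0.110. For Dpysl5, with 1 pool left out at a time, the call held only in the fits without pool 1 of Kir2.1 at P3 and pool 2 of control at P6, and the others gave adjusted p = 0.0544 to 0.128. No effector passed the limma test between the ages in Kir2.1 pools or in the interaction. There 12 and 14 of the 56 had an unadjusted p under 0.05, beside 14.2% and 10.5% of all named genes.

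The list of 52 other guidance cues, receptors and co-receptors had 40 tested genes. At P6, 33 of the 40 had lower means in Kir2.1 than in control pools, with a median of -0.58 beside -0.09 over all named genes, and 30 did with arrays scaled over all gene probes. In the same comparison, 14 of 15 interneuron markers (median -2.13) and 7 of 7 microglia markers (median -1.39) had lower means in Kir2.1 pools. So did 7 of 10 astrocyte, 6 of 10 oligodendrocyte, 5 of 8 ensheathing cell and 4 of 6 olfactory sensory neuron markers. Fewer did among vascular and blood (4 of 9), mitral and tufted (5 of 14) and cell division markers (0 of 4). The part of these cells was not tested. Sdc3, a heparan sulfate proteoglycan, was at 1.96, 1.78, 1.88 and 1.74 in control and at 1.26, 0.48, 0.39 and 0.44 in Kir2.1 pools at P6 and fell by 1.20 (SE 0.23, adjusted p = 0.0210) on the log2 scale; when pools 2 and 4 of Kir2.1 at P6 were left out one at a time, the call was lost (adjusted p = 0.0509 to 0.0557). Over both ages Sdc3 differed by -1.04 (SE 0.16, adjusted p = 0.0118), and this call held with any single pool left out. Cntn1, an axonal immunoglobulin superfamily protein, was at 1.14, 0.76, 1.10 and 1.61 in control and at 0.10, 0.47, -1.0 and -0.82 in Kir2.1 pools at P6 and differed by -1.47 (SE 0.34, adjusted p = 0.0486); with 1 pool left out at a time, the call held only in the fits without pool 2 of Kir2.1 at P6, and the others gave adjusted p = 0.0501 to 0.114. Ntng1, netrin-G1, a membrane-anchored relative of the netrins, fell over both ages, with a difference of -2.0 (SE 0.42, adjusted p = 0.0498); with 1 pool left out at a time, the call held only in the fits without pool 3 of control at P3, pool 3 of control at P6 and pool 3 of Kir2.1 at P6, and the others gave adjusted p = 0.0678 to 0.106. In Kir2.1 pools Ntng1 rose from -4.69, -3.62, -4.63 and -4.62 at P3 to -2.05, -2.29, 0.83 and -1.17 at P6, a difference of 3.22 (SE 0.60, adjusted p = 0.0296); when pools 1, 3 and 4 of Kir2.1 at P3 and pool 4 of Kir2.1 at P6 were left out one at a time, the call was lost (adjusted p = 0.0573 to 0.0765). None of the 40 passed the limma test at P3, where 5 had an unadjusted p under 0.05, beside 6.07% of all named genes. At P6 8 of the 40 did, beside 17.2%.

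In control pools, 5 of the 40 rose from P3 to P6 and none fell, beside 2.64% of named genes that passed in either direction. Smo, the transducer of Hedgehog signals, was at -0.33, -0.26, -0.25 and -0.25 at P3 and at 0.99, 0.81, 1.21 and 1.05 at P6, a difference of 1.29 (SE 0.19, adjusted p = 0.00354) that held with any single pool left out but was 1.35 (adjusted p = 0.475) with the mean over probes. In Kir2.1 pools Smo was at 0.69, 0.27, 0.51 and 0.71 at P3 and at 0.36, -0.01, 0.11 and 0.32 at P6. Kir2.1 pools were thus all above control pools at P3, by 0.82 (SE 0.19, adjusted p = 0.260), and all below them at P6, by -0.82 (SE 0.19, adjusted p = 0.0473), of which the second passed the test. The interaction was -1.64 (SE 0.27, adjusted p = 0.0362); with 1 pool left out at a time, the call held only in the fits without pool 2 of control at P6 and pool 1 of Kir2.1 at P6, and the others gave adjusted p = 0.0527 to 0.105. For the P6 difference of Smo, with 1 pool left out at a time, the call held only in the fits without pool 2 of control at P6, and the others gave adjusted p = 0.0547 to 0.0974. With arrays scaled over all gene probes the P6 difference was -0.60 (adjusted p = 0.177) and the interaction -1.47 (adjusted p = 0.139). With the mean over probes the interaction was -2.70 (adjusted p = 0.487).

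Rtn4r, the Nogo receptor, rose by 2.51 (SE 0.56, adjusted p = 0.0331), and Lingo1, its co-receptor, by 2.43 (SE 0.55, adjusted p = 0.0369), from P3 to P6 in control pools. For Rtn4r, when pools 1, 2 and 3 of control at P3 and pools 1, 2 and 4 of control at P6 were left out one at a time, the call was lost (adjusted p = 0.0592 to 0.0979). For Lingo1, when pools 1, 3 and 4 of control at P3, pool 4 of Kir2.1 at P3 and pools 1, 2 and 4 of control at P6 were left out one at a time, the call was lost (adjusted p = 0.0504 to 0.0810). The Lingo1 difference was 0.69 (adjusted p = 0.0602) with normexp background correction, 2.56 (adjusted p = 0.0699) with quantile normalization and 2.47 (adjusted p = 0.0537) with array weights. Boc, a co-receptor for Sonic hedgehog, was well above background in none of the P3 control pools and in all P6 control pools. Its fitted difference was 2.32 (SE 0.52, adjusted p = 0.0352). The group means differed at least 2.65-fold, without allowance for the spread between pools. When pools 1, 2 and 3 of control at P3 and pools 1 and 3 of control at P6 were left out one at a time, the call was lost (adjusted p = 0.0727 to 0.0994). Boc, too, was tested only through the P6 control pools, where it was high, since 2 other arrays were well above background. With signals floored at background its difference was 1.41 (adjusted p = 0.127), and with normexp background correction 0.55 (adjusted p = 0.183). Rgma, a repulsive ligand of the Dcc relative Neo1, rose by 1.22 (SE 0.28, adjusted p = 0.0365); with 1 pool left out at a time, the call held only in the fits without pool 1 of control at P3, pools 2 and 3 of Kir2.1 at P3, pool 3 of control at P6 and pools 1, 2 and 3 of Kir2.1 at P6, and the others gave adjusted p = 0.0509 to 0.112. With the interneuron marker mean as a covariate, 1 of the 20 calls described for guidance genes and these 2 lists held, that of Ntng1 between the ages in Kir2.1 pools. Over all named genes, calls went with this covariate from 318 to 0 between the ages in control pools. They went from 217 to 2 between Kir2.1 and control pools at P6, and from 115 to 96 between the ages in Kir2.1 pools. The P6 control pools had the highest marker means, so this fit can hardly separate the covariate from that group. When the fit held only the 8 arrays of a comparison, 1 of 15 calls held, that of Smo between the ages in control pools.

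**Figure D5:**
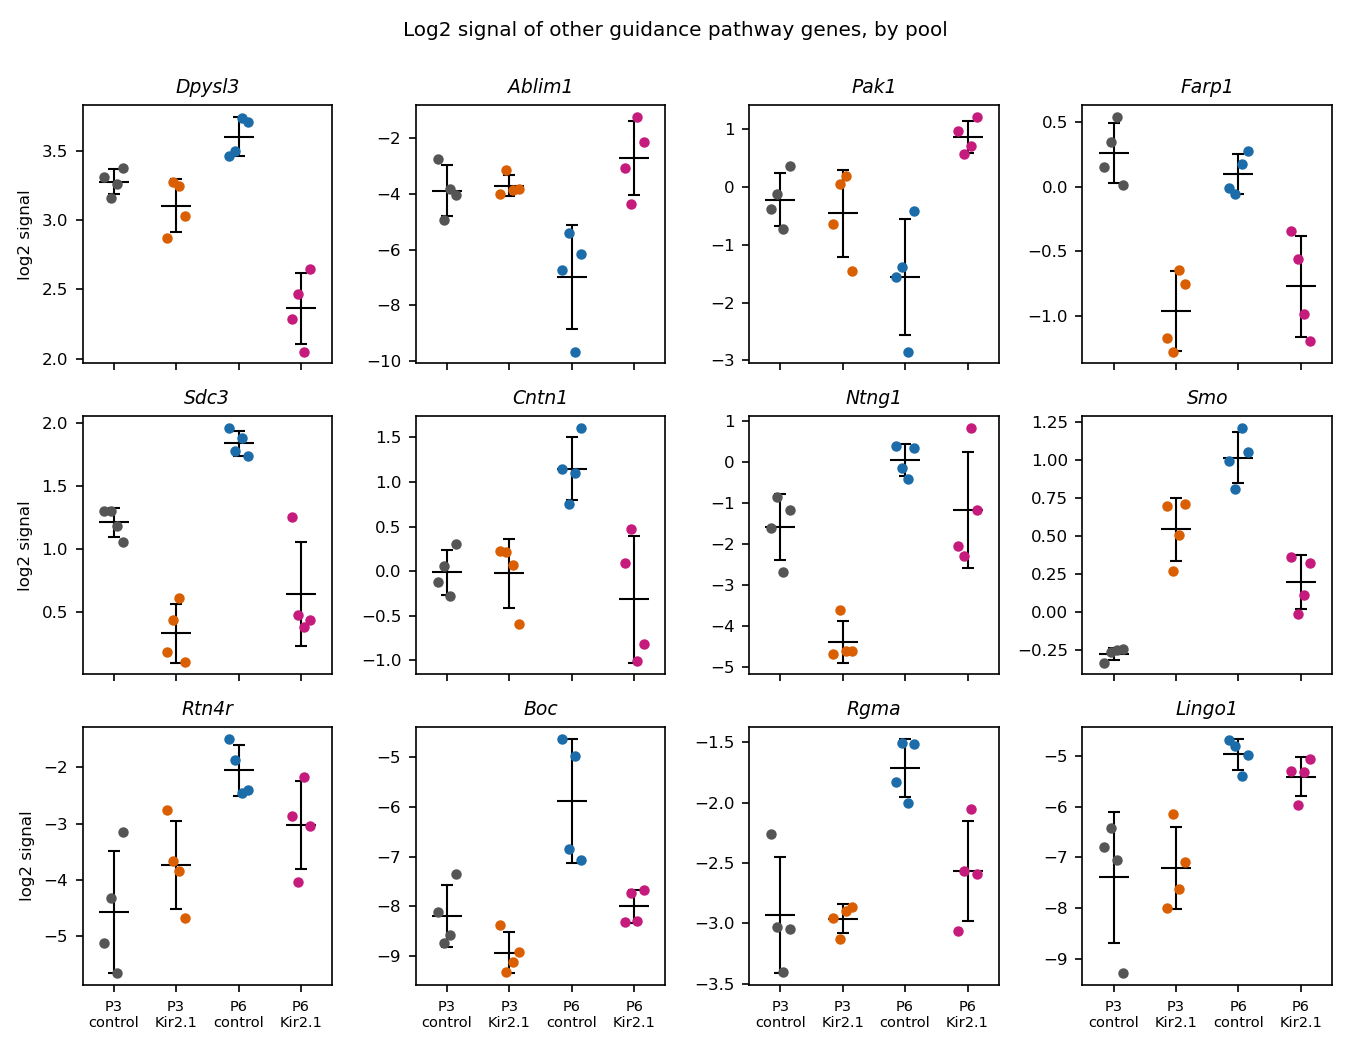
Log2 signal of 12 genes of the effector and cue lists in each pool of 10 cells (points, 4 pools a group), with the mean and SD of the group in black. Dpysl3 at P6 and Farp1 at both ages have Kir2.1 pools below all control pools, and Smo Kir2.1 pools lie above the control pools at P3 and below them at P6.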

How the data were processed

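Per the file headers, each of the 16 arrays was a 1-colour (Cy3) Agilent array, for which Agilent Feature Extraction 10.7.3.1 wrote a processed intensity per spot after background subtraction, as deposited. The deposited value table held the same signal as a linear intensity relative to a constant of each array (ratio to the scanner values 1.00 after that constant), with medians per array between 0.0395 and 0.13 and no gene centring. The highest median was that of P3 Kir2.1 pool 3, and the next highest was 0.0741. Control spots and outlier spots were left out, spots of a probe were averaged, and no gene spot was saturated. Probes were named through RefSeq accessions (GRCm38.p6): 26546 of 28079 probes with an accession matched a symbol. Log2 signals were computed from the deposited intensities, scaled to the 75th percentile over the 12103 probes well above background on all arrays, and tested where well above background on at least 4 arrays. All 16 arrays were fitted with lmFit and eBayes of limma 3.58.1 in R 4.3.3 (12 residual degrees of freedom) on 21070 features. Every adjusted p is from limma with the Benjamini-Hochberg adjustment over these features, with a threshold of 0.05, and intervals are 95%. A bound ("at least N-fold") compares the brighter group's mean with the lowest well above background signal per array or the dim signal, whichever was higher. It is set by group means alone and is not the lower end of an interval. The fit was tested on simulated data. The genes, lists and tests were chosen with earlier results of these data known. Described in full were called genes and the 5 guidance genes with the lowest p per comparison, 16 in all, then up to 3 further genes per family, and called genes of the 2 lists. The number of arrays limits the precision. The normexp alternative used median spot signals with an offset of 50. Replicate numbers did not pair the pools (correlations of same-numbered deviations between -0.0282 and 0.0308).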

Additional observations from a re-analysis of the deposited data

Results flagged for a closer look

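In 9 of 120 sets of 4 pools (7.5%), of the genes described in full and the named genes of the 2 lists, 1 pool stood apart, the gap to the nearest other pool, as a share of the range of the set, exceeding Dixon's 95% critical value. Chance alone marks about 5% of such sets. For Dcc, P3 control pool 4 was at 1.58 beside 0.99 to 1.06 (gap 0.883 of the range). For Epha3, P3 Kir2.1 pool 3 was at -3.98 beside -1.93 to -1.63 (0.872), and P6 Kir2.1 pool 2 was at -7.06 beside -4.11 to -3.54 (0.839). For Ephb6, P3 Kir2.1 pool 3 was at -1.85 beside -2.72 to -2.60 (0.866), and P6 Kir2.1 pool 3 was at 0.01 beside -1.62 to -1.43 (0.880). For Plxnb1, P6 Kir2.1 pool 2 was at -3.16 beside -9.82 to -8.77 (0.843). For Sema3c, P3 control pool 4 was at -8.57 beside -9.53 to -9.43 (0.898), all below background. For Ntng1, P3 Kir2.1 pool 2 was at -3.62 beside -4.69 to -4.62 (0.938), and for Sdc3, P6 Kir2.1 pool 1 was at 1.26 beside 0.39 to 0.48 (0.891).

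In 2 genes an age or Kir2.1 difference had opposite signs in the 2 treatments or at the 2 ages, without overlap of the pools compared. Dpysl3 was higher at P6 than at P3 in every control pool, by 0.33, and lower in every Kir2.1 pool, by -0.74, and the difference of -1.07 missed the threshold (limma, adjusted p = 0.162). Smo was higher in Kir2.1 pools at P3, by 0.82, and lower at P6, by -0.82, with a difference of -1.64 (limma, adjusted p = 0.0362).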

How the results depend on the processing

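The count of guidance genes called stayed at 0 at P3, over both ages, between the ages in Kir2.1 pools and in the interaction, under every alternative fitted and with any single pool left out; the fit of only the 8 arrays compared was not made over both ages or for the interaction. At P6 it was 0, and 1 under normexp background correction (Plxna4), and between 0 and 1 with single pools left out. From P3 to P6 in control pools it was 1, and 0 with the filter at 8 arrays (where Sema3c was not tested), with no filter on dim probes, with signals floored at background, with only the 8 arrays compared, and with the interneuron marker mean as a covariate, and between 0 and 1 with single pools left out. With normexp correction that 1 gene was Plxna4. With the replicate block, in which pools with the same number were paired, the count was 0 (Sema3c, adjusted p = 0.0753). Of the signs, 2 reversed: Sema3c at P6 became 0.26 (adjusted p = 0.969) with the interneuron covariate, and Epha5 from P3 to P6 in control pools became 0.59 (adjusted p = 0.678) with the mean over probes. Of 616 values of single genes under alternatives, these 2 included, 512 kept direction and side of the threshold, 100 lost the call and 2 gained one. Of 784 with a pool left out, these were 634, 148 and 2, and 0 reversed. Differences that were never called and stayed so are among those kept, and only the 20 calls described could be lost. The causes were not tested. Of the 20 calls described, 11 held with arrays scaled over all gene probes, 17 with quantile normalization, 17 with normexp, 8 with no filter, 4 with the replicate block and 4 with any single pool left out. Signal over background left 16 of the 71 genes untested, and no class 3 semaphorin or netrin was above it on all 16 arrays. The labels leave the number of animals open, so the spread between pools may understate that between mice.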
